A study of Mus musculus with 21 samples.

Results

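The genes described here build or anchor the junctions of the blood-testis barrier: Cldn3, Cldn5, Cldn11, Ocln, F11r, Jam3, Tjp1, Cgn, Gja1 and Cdh2. They were picked by gene name from a table of 32643 mouse genes, and all 10 were found and had enough reads to be tested. The table holds RNA sequencing of whole testes from 21 mice at postnatal day 10. Knockout mice (KO, genotype FXRα-/-) lack the product of Nr1h4, a nuclear receptor for bile acids. They were given bisphenol A (BPA; animals T25, T83 and T117), stigmasterol (T10, T15 and T93) or vehicle (T1, T90 and T110). Wild-type mice (WT) had BPA (T60, T75, T61 and T74), stigmasterol (T78, T98, T118 and T119) or vehicle (T66, T71, T79 and T81). Each KO group thus has 3 animals and each WT group 4, and values of single animals are given in the order of these names. Every animal has the strain label 50% 129sv and 50% C57Bl6, and all libraries were run on 1 flowcell. BPA is a monomer of polycarbonate plastics with weak estrogenic activity, and stigmasterol is a sterol made by plants. No source used here gives the doses, the routes, the litters or which part of Nr1h4 is deleted. The p-values rest on the spread between these animals and treat them as independent, which cannot be checked without the litters.

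Sertoli cells are the nurse cells of the seminiferous tubule. Near the tubule wall they seal themselves to each other with tight junctions, gap junctions and a testis-specific adherens junction, the basal ectoplasmic specialization, which together divide the tubule into a basal and an inner compartment. The seal closes after the first germ cells have entered meiosis, so at day 10 these genes are read while the barrier is still being assembled. Tight junctions consist of strands of claudins and occludin with junctional adhesion molecules beside them, held from inside the cell by the scaffolds ZO-1 and cingulin. Gap junctions of the connexin Cx43 let small molecules pass between Sertoli cells and from them to germ cells, and N-cadherin carries the adherens contacts.

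**Figure D1:**
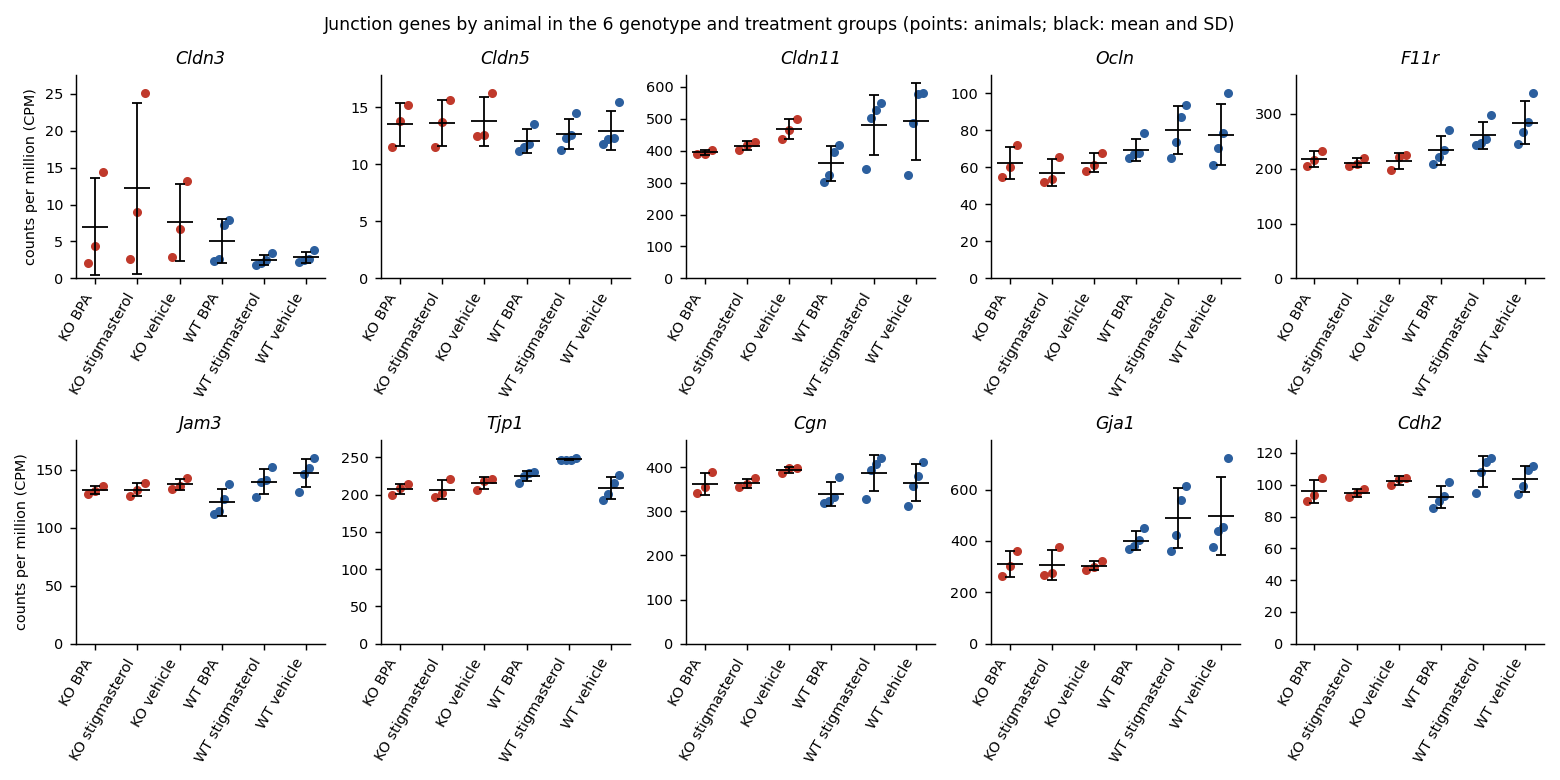
Level of each junction gene in reads per 1000000 counted reads of a library (CPM, linear axes from 0) in the 6 groups, with 1 point per animal, KO red and WT blue, and the group mean and SD in black. Gja1 lay at 265 to 375 CPM in KO animals and at 362 to 722 CPM in WT animals, and Tjp1 was almost the same in the 4 WT stigmasterol animals.

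The start-site regions of the 5 genes that differed between genotypes over all treatments are printed first, so that the 4 genes lower in KO can be read beside the 1 that was higher. Each window runs from 250 bases before to 50 bases after a RefSeq start site of build GRCm38.p6. Capitals mark the motif matches named below, read on the printed strand.
Gja1, chr10:56377050-56377349, plus strand: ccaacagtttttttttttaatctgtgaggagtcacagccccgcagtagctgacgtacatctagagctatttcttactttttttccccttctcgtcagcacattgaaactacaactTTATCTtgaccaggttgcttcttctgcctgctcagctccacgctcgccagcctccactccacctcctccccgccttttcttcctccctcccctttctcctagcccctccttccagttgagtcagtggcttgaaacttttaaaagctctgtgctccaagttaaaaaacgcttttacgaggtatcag
Ocln, chr13:100552669-100552968, minus strand: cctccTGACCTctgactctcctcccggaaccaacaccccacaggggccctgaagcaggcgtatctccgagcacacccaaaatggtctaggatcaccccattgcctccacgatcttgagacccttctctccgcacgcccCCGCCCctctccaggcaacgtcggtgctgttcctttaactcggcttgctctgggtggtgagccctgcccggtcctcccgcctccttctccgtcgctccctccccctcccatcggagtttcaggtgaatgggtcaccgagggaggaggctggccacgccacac
F11r, chr1:171437311-171437610, plus strand: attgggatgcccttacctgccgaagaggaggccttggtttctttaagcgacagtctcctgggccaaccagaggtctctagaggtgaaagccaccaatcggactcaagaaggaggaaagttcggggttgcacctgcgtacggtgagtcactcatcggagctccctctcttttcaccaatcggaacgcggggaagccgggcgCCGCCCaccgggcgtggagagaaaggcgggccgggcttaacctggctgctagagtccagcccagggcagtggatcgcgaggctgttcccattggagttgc
Tjp1, chr7:65371195-65371494, minus strand: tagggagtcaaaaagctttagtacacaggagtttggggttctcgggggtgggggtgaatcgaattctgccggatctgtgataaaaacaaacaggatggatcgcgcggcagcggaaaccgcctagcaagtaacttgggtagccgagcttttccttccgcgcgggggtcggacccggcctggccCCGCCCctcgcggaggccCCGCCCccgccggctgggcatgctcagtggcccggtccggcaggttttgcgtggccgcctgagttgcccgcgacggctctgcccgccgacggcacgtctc
Cldn3, chr5:134985964-134986263, plus strand: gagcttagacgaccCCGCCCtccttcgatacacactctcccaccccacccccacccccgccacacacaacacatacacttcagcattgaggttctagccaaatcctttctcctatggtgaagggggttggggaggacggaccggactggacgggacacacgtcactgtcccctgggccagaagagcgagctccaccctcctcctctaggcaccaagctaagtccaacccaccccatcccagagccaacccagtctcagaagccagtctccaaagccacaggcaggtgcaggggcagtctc

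Windows were at hand for 8 of the 10 genes, and Ocln has a further one. The motifs were searched on both strands. The GC box GGGCGG is the common site of SP1-type factors. It was present in at least 1 window of 7 of these 8 genes and in 35.7% of all promoter windows, and Gja1 was the gene without it. In the windows printed here every GC box lies on the opposite strand. Gja1 held the GATA motif AGATAA, on the strand opposite to the one printed, at base -135 from the start site, a motif found in 11.2% of all windows. The Ocln window shown held 1 nuclear receptor half-site AGGTCA, likewise on the opposite strand, at base -245, against 16.3% of all windows. The element usually bound by FXR is 2 such half-sites facing each other with 1 base between them, named IR-1. It had no match in any of these windows and matched 0.00913% of all promoter windows. The steroid receptor half-site AGAACA, the SOX motif ACAATG and the TATA box TATAAA had no match here, against 19.0%, 12.6% and 13.6% of all windows. A match is a description of the letters and not a site of binding.

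Levels of different genes are comparable only per length of transcript, so their order was read from the authors' normalized signal per kb of gene length. The order depends on the lengths the authors used, which were not checked here. In CPM, which takes no account of length, F11r averaged less (215 in KO, 259 in WT) than Cldn11 (426 in KO, 444 in WT). Per kb, F11r had the highest median over the 21 animals, 14961 (12683 to 21412), followed by Cldn11 with 9941 (7059.8 to 13911) and Gja1 with 5256 (3700.3 to 9985). Cgn came next with 4442, then Jam3 with 3662 and Tjp1 with 2799 normalized signal per kb. Each of these genes overlapped its neighbour in that order over the 21 animals. Ocln at 1188 and Cdh2 at 1139.7 overlapped each other, and both lay wholly below Tjp1. Cldn5 stood lower, at 385 (342 to 497), and Cldn3 had the lowest median, 100.2, but the widest range relative to it (63.0 to 875), so that its highest animals passed those of Cldn5. The Sertoli cell claudin Cldn11 was thus the most abundant of the 3 claudins listed.

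The libraries held 35459523 to 61498855 counted reads, and 20254 genes were tested. Values below are CPM scaled with the TMM method (trimmed mean of M values). Log2 fold changes carry their standard error (SE) and come from 1 edgeR quasi-likelihood model of the 6 groups. A gene is called where its two-sided p, adjusted over all genes tested (Benjamini-Hochberg), is under 0.05. Nr1h4 itself was at 0.172 to 0.492 CPM in KO animals and 0.241 to 0.868 CPM in WT animals, so it does not check each label. The testis label fits its markers: the Sertoli genes Amh and Sox9 were at 131 CPM or more in every library. Transcripts of the epididymis were unequal between libraries. Cdh16, a cadherin of duct epithelium, reached 10 CPM in 6 KO animals (T83, T117, T10, T93, T1 and T110) and 3 WT animals (T60, T75 and T81). The summed level of 12 epididymis and duct markers was 112 to 698 CPM in KO animals and 65.4 to 199 CPM in WT animals. Epcam, 1 of the 12, was at 72.2 to 181 CPM in KO and 40.1 to 76.6 CPM in WT. In the KO animals T25, T15 and T90, whose Cdh16 was 1.16 CPM or less, Epcam was at 88.9, 85.2 and 85.6 CPM. The low end of the KO sums is thus mostly Epcam, which also counts in the list score used below. In 5 WT libraries Wfdc15b or Spink8, markers of that list, had no read. Of 5 fat markers 4 were also higher in KO (sums of 10.2 to 94.6 CPM in KO and 9.24 to 20.6 CPM in WT). The liver gene Alb reached 18.9 CPM in KO and 578 CPM in WT, and the vessel gene Pecam1 was at 18.6 to 28.2 CPM in KO and 15.04 to 21.2 CPM in WT. The kit does not keep the strand, and reads of antisense transcripts are not told apart. Wbscr25 lies antisense to Cldn3 with 1 to 19 reads per library, and Gm15485 antisense to Cdh2 with 0 to 3.

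KO testes had less connexin Cx43 mRNA than WT testes, together with smaller deficits of 3 tight junction genes. Cldn3 was higher in KO on average, but not among libraries with Cdh16 under 10 CPM. There it was 2.06 to 2.90 CPM in KO and 1.82 to 3.38 CPM in WT. Averaged over the 3 treatments, Gja1, F11r, Ocln and Tjp1 fell and Cldn3 rose, which makes 5 of 10 members called. Of all genes tested 13.9% were called in this comparison, 7.07% lower and 6.85% higher. The median log2 fold change of the 10 members was -0.05, and that of all genes 0.01. Cldn5, Cldn11, Jam3, Cdh2 and Cgn were not called. The spread of Gja1, F11r and Ocln between WT animals was wide, while KO animals stayed close together at the low end. In whole testis, fewer Sertoli cells and less RNA per Sertoli cell cannot be told apart.

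Gja1 (ENSMUSG00000050953, chromosome 10, 56377300 to 56390419, mm10) encodes connexin Cx43, the main gap junction protein of Sertoli cells. Its loss from Sertoli cells alone stops germ cell development in mice. Gja1 was at 265, 304 and 362 CPM in KO BPA animals, and at 382, 405, 451 and 368 CPM in WT BPA animals. It was at 267, 276 and 375 CPM in KO stigmasterol animals, and at 559.8, 362, 424 and 612 CPM in WT stigmasterol animals. It was at 324, 289 and 299 CPM in KO vehicle animals, and at 376, 441, 454 and 722 CPM in WT vehicle animals. The KO and WT groups did not overlap under BPA or vehicle, and under stigmasterol the KO animal T93 passed the WT animal T98. Over all treatments Gja1 averaged 307 ± 39.8 CPM in KO (SD, n = 9) and 463 ± 112 CPM in WT (SD, n = 12). The log2 fold change was -0.59 ± 0.116 (SE, edgeR adjusted p = 0.00248), a KO level 0.666 times that of WT. This call held in each of the 21 fits that left out 1 library. Within treatments it was -0.37 ± 0.200 under BPA (edgeR adjusted p = 0.696), -0.68 ± 0.201 under stigmasterol (adjusted p = 0.0475) and -0.71 ± 0.201 under vehicle (adjusted p = 0.0616). The stigmasterol call lay close to the threshold and was lost in 15 of the 21 fits, with adjusted p up to 0.164. Of 8 other ways of fitting listed below, the stigmasterol call held in 4. Those that lost it included limma-voom (adjusted p = 0.0555) and a fit of the stigmasterol groups alone (0.135).

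Ocln (ENSMUSG00000021638, chromosome 13, 100496507 to 100552718) encodes occludin, a membrane protein of the tight junction strand. KO animals lay at 52.2 to 71.8 CPM (median 60.3) and WT animals at 61.4 to 100 CPM (median 72.1). The ranges overlapped, with 6 of 12 WT animals inside the KO range and the WT animals T81, T119 and T78 furthest above it. Ocln averaged 60.5 ± 6.77 CPM in KO (SD, n = 9) and 75.7 ± 12.3 CPM in WT (SD, n = 12). On the log2 scale KO differed from WT by -0.32 ± 0.0860 (SE, edgeR adjusted p = 0.0189). Within single treatments edgeR did not call Ocln, and DESeq2 did under stigmasterol (adjusted p = 0.0226). The edgeR log2 fold change was -0.16 under BPA, -0.49 ± 0.150 under stigmasterol (edgeR adjusted p = 0.0548) and -0.32 under vehicle. Ocln and Gja1 ranked the animals alike, with the same 3 WT animals at the top of both, as the plot of Ocln against Gja1 shows.

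F11r (ENSMUSG00000038235, chromosome 1, 171437535 to 171464603) encodes JAM-A, an immunoglobulin-type adhesion molecule at the tight junction. It was at 225, 198 and 221 CPM in KO vehicle animals, and at 285, 268, 245 and 338 CPM in WT vehicle animals. The 2 groups did not overlap, and F11r was the 1 member called among vehicle animals, at -0.40 ± 0.103 (SE, edgeR adjusted p = 0.0388). In that comparison 2.92% of all genes were called, 1.68% lower, and DESeq2 called Gja1 as well as F11r, among 6.9% of its genes. The call was lost without any 1 of 7 animals (KO T1, T90 or T110, or WT T66, T81, T60 or T118, all of which share 1 estimate of the spread), with adjusted p up to 0.137, and in a fit of the vehicle groups alone (adjusted p = 0.148). Under stigmasterol F11r was at 205, 208 and 219.9 CPM in KO, and at 255, 243, 247 and 298 CPM in WT animals. These groups did not overlap either (-0.31 ± 0.103, edgeR adjusted p = 0.0778). Under BPA the groups overlapped, at 205 to 233 CPM in KO and 209 to 270.0 CPM in WT (-0.10 ± 0.102). Averaged over treatments F11r was 215 ± 11.4 CPM in KO (SD, n = 9) and 259 ± 35.4 CPM in WT (SD, n = 12), at -0.27 ± 0.0592 (SE, edgeR adjusted p = 0.00548), and this call held in all 21 fits without 1 library. Of the 10 members, 2 did not overlap between KO and WT under each treatment (Gja1 and F11r under vehicle, Gja1 and Tjp1 under BPA, Tjp1 and F11r under stigmasterol). The share of all genes without overlap was 16.3% under vehicle, 10.3% under BPA and 17.0% under stigmasterol. Over all treatments no member separated the 9 KO from the 12 WT animals, against 1.05% of all genes that did.

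Tjp1 (ENSMUSG00000030516, chromosome 7, 65296165 to 65371239) encodes ZO-1, the scaffold that ties the strands and the gap junctions to actin. Under stigmasterol it was at 203, 196 and 221 CPM in KO, and at 246, 248.5, 247 and 247 CPM in WT animals. The 4 WT animals were nearly equal, and every KO animal lay below all of them (-0.26 ± 0.0565, SE, edgeR adjusted p = 0.0108). This call held in all 21 fits without 1 library and in 6 of 8 other ways of fitting. It was lost, for example, in a fit of the stigmasterol groups alone (adjusted p = 0.0838). Under stigmasterol 3 of 10 members were called, Tjp1 and Gja1 lower and Cldn3 higher, where 7.21% of all genes were called, 3.34% lower and 3.87% higher. DESeq2 called Ocln and F11r too, 5 of 10 members, against 9.83% of its genes. Under BPA Tjp1 was at 199.5, 209 and 214 CPM in KO, and at 216, 229, 225 and 230.3 CPM in WT animals. These groups too did not overlap (-0.12 ± 0.0563, edgeR adjusted p = 0.619). Under vehicle they did, at 206 to 221 CPM in KO and 193 to 226 CPM in WT, with a fold change of the other sign (0.04 ± 0.0562). The averaged difference was small, -0.11 ± 0.0325 (SE, edgeR adjusted p = 0.0305), and its call was lost without KO T110, T25 or T15 or WT T74 (adjusted p up to 0.0641) or without the filter on low counts (0.054). No member was called under BPA, where 0.859% of all genes were.

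**Figure D2:**
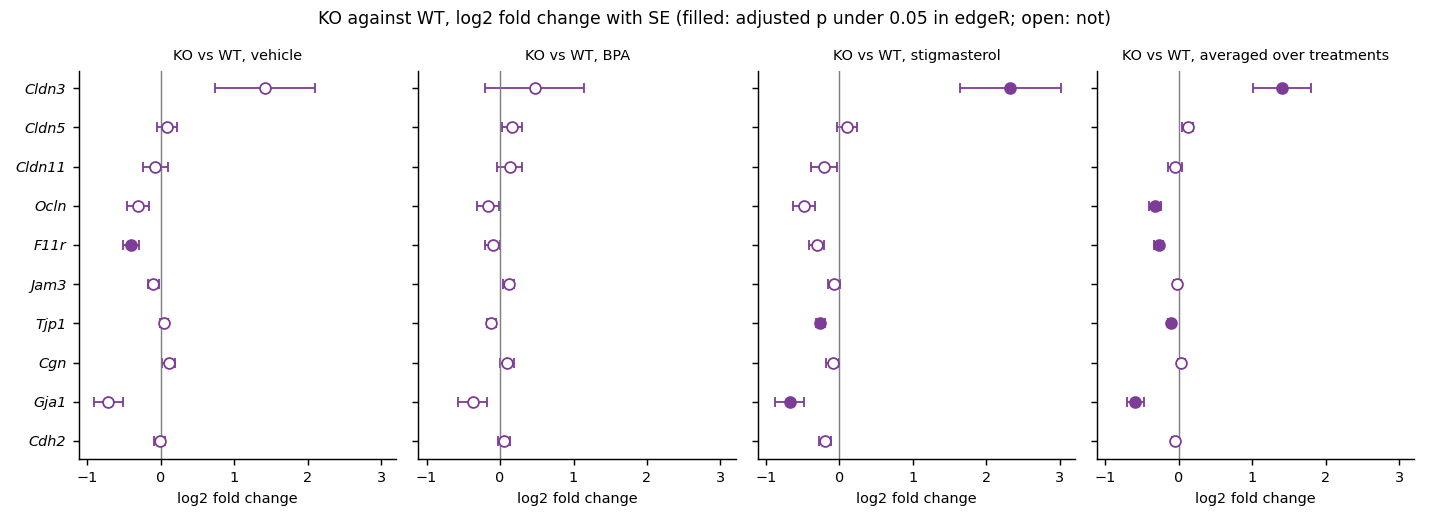
Log2 fold change of each junction gene, KO against WT, with its SE, in vehicle, BPA and stigmasterol animals and averaged over treatments; filled points have an edgeR adjusted p under 0.05. Gja1 lies left of 0 in each panel, at -0.59 on average, and Cldn3 has the longest error bars.

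Cldn3 (ENSMUSG00000070473, chromosome 5, 134986214 to 134987472) encodes claudin 3, which Sertoli cells add to new tight junctions and which many duct epithelia also make. It was at 2.06, 4.40 and 14.4 CPM in KO BPA animals, and at 7.19, 7.96, 2.60 and 2.30 CPM in WT BPA animals. It was at 8.96, 2.60 and 25.1 CPM in KO stigmasterol animals, and at 2.53, 3.38, 1.82 and 2.03 CPM in WT stigmasterol animals. It was at 13.2, 2.90 and 6.74 CPM in KO vehicle animals, and at 2.55, 2.28, 2.68 and 3.89 CPM in WT vehicle animals. The KO animals T25, T83, T15, T90 and T110 lay inside the WT range, and the KO animals T117, T10, T93 and T1 lay above all 12 WT animals. The log2 fold change was 1.41 ± 0.391 averaged over treatments (SE, edgeR adjusted p = 0.023) and 2.33 ± 0.686 under stigmasterol (adjusted p = 0.0463). The averaged call was lost without KO T1, T117 or T93 (adjusted p up to 0.0757), and limma-voom did not make it (adjusted p = 0.121). The stigmasterol call was lost in 13 of the 21 fits without 1 library (adjusted p up to 0.36).

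High Cldn3 went with high epididymal transcripts. Among the animals whose Cdh16 reached 10 CPM, Cldn3 was 4.40 to 25.1 CPM in 6 KO and 3.89 to 7.96 CPM in 3 WT. Among the rest it was 2.06 to 2.90 CPM in 3 KO and 1.82 to 3.38 CPM in 9 WT, which overlap. Without those 9 Cdh16-rich libraries the averaged log2 fold change of Cldn3 was 0.0078 (edgeR adjusted p = 0.994). With the epididymis score of each library as a covariate, added after the data were seen, it was -0.04 (adjusted p = 0.925). Within genotypes the log2 level of Cldn3 followed the mean log2 level of the 12 epididymis and duct markers. Pearson's r was 0.97 in 9 KO animals (Spearman's rho 0.93, exact permutation adjusted p = 9.92e-04 and 0.02). It was 0.95 in 12 WT animals (rho 0.83, permutation adjusted p = 4.00e-04 and 0.0285). Without the 2 animals farthest from the median score, r was 0.97 in KO and 0.84 in WT.

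The other 4 genes were fitted in the same ways. With the epididymis score as a covariate the averaged log2 fold change was -0.74 for Gja1 (edgeR adjusted p = 0.00188), -0.43 for Ocln (0.0126), -0.32 for F11r (0.00879) and -0.15 for Tjp1 (0.0226). Without the 9 Cdh16-rich libraries it was -0.68 for Gja1, -0.43 for Ocln, -0.34 for F11r and -0.15 for Tjp1. None of these was called with 1 KO animal left per treatment (edgeR adjusted p = 0.0997 to 0.287, and 257 genes called in all). In that remainder Gja1 was 265 to 289 CPM in 3 KO and 362 to 612 CPM in 9 WT animals. Gja1, Ocln and F11r, 3 of 10 members, did not overlap there, against 6.24% of all genes, and Tjp1 overlapped at 196 to 219 CPM in KO and 193 to 248.5 CPM in WT.

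**Figure D3:**
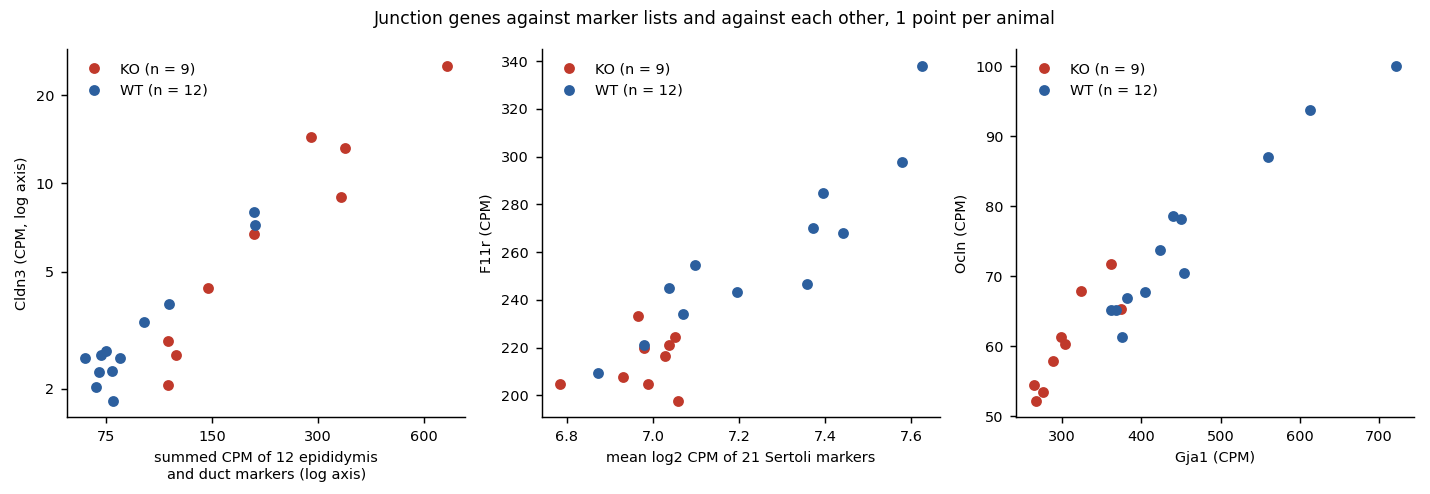
Left, Cldn3 (CPM) against the summed CPM of 12 epididymis and duct markers, both on log axes; middle, F11r (CPM) against the mean log2 CPM of 21 Sertoli markers; right, Ocln (CPM) against Gja1 (CPM), with 1 point per animal, KO red and WT blue. Cldn3 reached 25.1 CPM in the KO animal with the highest epididymal sum, 698 CPM, and the KO animals lie at the low end of the other 2 panels.

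The remaining members showed no genotype call in any treatment. Cldn11 (ENSMUSG00000037625, chromosome 3, 31149946 to 31164324), without which Sertoli cells form no tight junction strands in mice, was at 389.8 to 501 CPM (median 418) in KO and 302 to 581 CPM (median 453) in WT (-0.05 ± 0.0992, edgeR adjusted p = 0.79). All 9 KO animals lay inside the WT range, which was wider. Cldn5 (ENSMUSG00000041378, chromosome 16, 18776847 to 18778260), a claudin of blood vessel walls that Sertoli cells also make, was at 11.5 to 16.3 CPM (median 13.8) in KO and 11.2 to 15.5 CPM (median 12.3) in WT (0.12 ± 0.0791). Jam3 (ENSMUSG00000031990, chromosome 9, 27097385 to 27155421), JAM-C, which Sertoli and germ cells use to bind each other, was at 127 to 143 CPM (median 133) in KO and 112 to 159.6 CPM (median 138) in WT (-0.02 ± 0.0445). Cgn (ENSMUSG00000068876, chromosome 3, 94760069 to 94786492), the cytoplasmic linker cingulin, was at 341 to 398 CPM (median 375) in KO and 312 to 420.2 CPM (median 368) in WT (0.04 ± 0.0521). For these 3 genes too the genotypes overlapped over most of their range. Cdh2 (ENSMUSG00000024304, chromosome 18, 16588877 to 16809246), the N-cadherin of the basal ectoplasmic specialization, was at 89.9 to 105 CPM (median 97.6) in KO and 85.5 to 116.6 CPM (median 101) in WT (-0.05 ± 0.0451). Under stigmasterol Cdh2 was 94.8 ± 2.66 CPM in KO (SD, n = 3) and 109 ± 9.73 CPM in WT (SD, n = 4), at -0.20 ± 0.0783 (edgeR adjusted p = 0.146). A p above the threshold does not show that the genotypes are alike.

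Over all treatments Sertoli marker genes were lower in KO as a set. Of the 10 members 4 were called lower and 1 higher, with a median log2 fold change of -0.05. Of all genes tested, 7.07% were called lower and 6.85% higher in KO over all treatments. Of 21 Sertoli marker genes, none of them a member, 10 were called lower and none higher there. The median log2 fold change of these markers was -0.31. Their summed level was 6371 to 7677 CPM in KO animals and 6904 to 11780 CPM in WT animals, and no marker of the list was at 0 in any library. The part of this shift in the results for Gja1, Ocln, F11r and Tjp1 was not tested. Within WT animals 4 members were related to the mean log2 level of the Sertoli list by both r and rho after adjustment over 80 relations, and Cdh2 by rho alone. The 3 treatments were pooled here, so differences between treatments enter these relations. For BPA against vehicle in WT the Sertoli list had a median log2 fold change of -0.35. Jam3 (-0.27), F11r (-0.28), Cgn (-0.11), Cldn11 (-0.45) and Cdh2 (-0.16) were negative there too, none of them called. Jam3 had r = 0.95 (rho 0.95, permutation adjusted p = 5.33e-04 and 0.0016, n = 12). F11r had r = 0.92 (rho 0.93, permutation adjusted p = 4.00e-04 and 0.0016). Cgn had r = 0.86 (rho 0.85, permutation adjusted p = 0.0136 and 0.0204), and Cldn11 had r = 0.84 (rho 0.81, permutation adjusted p = 0.0225 and 0.0287). These r stayed at 0.82 to 0.91 without the 2 animals farthest from the median score. Cdh2 had r = 0.77 (rho 0.77, permutation adjusted p = 0.0523 and 0.0487), and 0.77 without those 2 animals.

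Gja1, Ocln and Tjp1, which were lower in KO, did not pass that threshold. In WT animals Gja1 had r = 0.60 with the Sertoli list (permutation adjusted p = 0.22) and r = -0.75 with 16 meiotic prophase genes (rho -0.80, permutation adjusted p = 0.0523 and 0.0312). Animals with more meiotic transcripts thus tended to have less Gja1, a relation on the edge of the threshold whose r was -0.69 without 2 animals. The meiotic list itself stood at a mean log2 CPM of 4.44 to 6.37 in KO (median 5.67) and 3.96 to 6.45 in WT (median 4.87). Of its 16 genes 15 had a positive log2 fold change in KO over all treatments (median 0.36) and none was called, and its part in the Gja1 result was not tested. Ocln had r = 0.63 with the Sertoli list in WT (permutation adjusted p = 0.186) and r = -0.68 with the meiotic list (permutation adjusted p = 0.104). Tjp1 had r = -0.08 with the Sertoli list in WT (permutation adjusted p = 0.848). In KO animals no member passed the threshold for the Sertoli list, with r of 0.01 to 0.64 (exact permutation adjusted p = 0.278 or more, n = 9). Gja1 had r = -0.61 with the meiotic list in KO (exact permutation adjusted p = 0.366). For a list of 15 endothelial markers no member passed the threshold in KO or WT. The largest r there were 0.78 for Gja1 and 0.74 for Ocln, both in KO (exact permutation adjusted p = 0.0845 and 0.104).

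**Figure D4:**
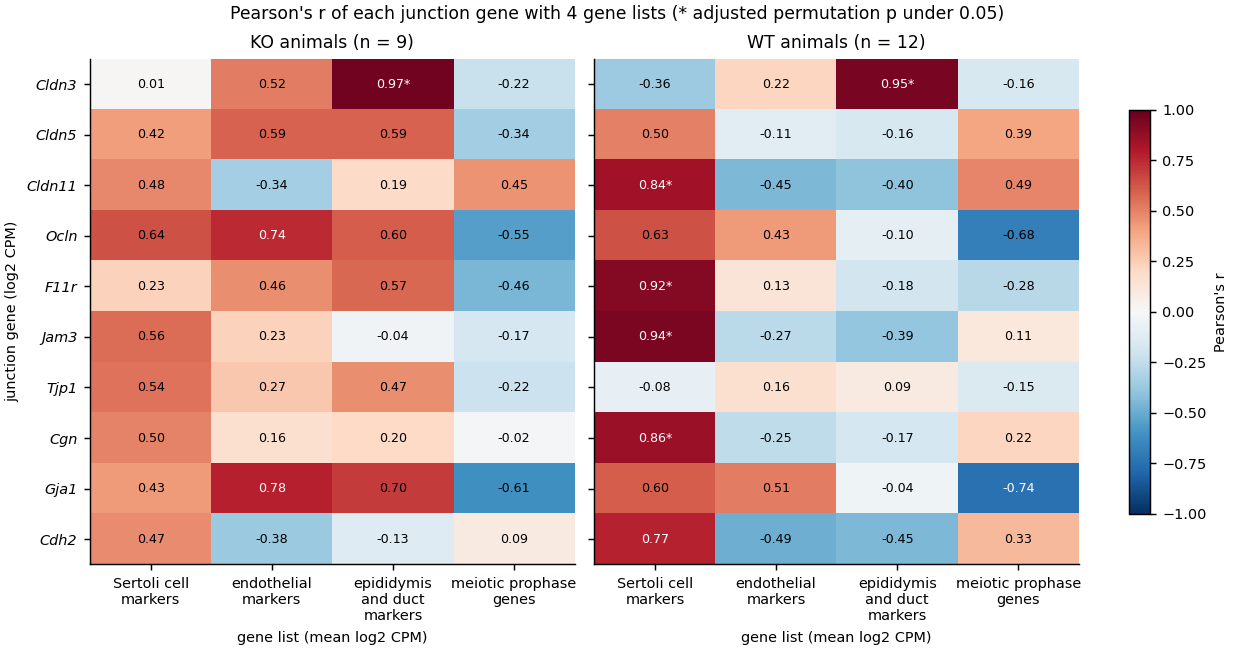
Pearson's r between the log2 CPM of each junction gene and the mean log2 CPM of 4 gene lists over the 9 KO animals (left) and the 12 WT animals (right); red is positive, blue negative, and a star marks an adjusted permutation p under 0.05. Cldn3 stands with the epididymis list in both genotypes, and Cldn11, F11r, Jam3 and Cgn with the Sertoli list in WT.

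The comparisons of BPA and of stigmasterol with vehicle share their vehicle animals within a genotype. They ask whether either compound shifts these genes at day 10, and edgeR called no member in any of the 4. Under BPA in WT 0.0% of all genes were called, while 3798 genes had an unadjusted p under 0.05 and DESeq2 called 1019, 5.73% of its genes, and limma-voom none. No member was free of overlap in WT between BPA and vehicle, against 8.1% of all genes. Of the 10 members 5 had an unadjusted p under 0.05 there, and 8 of 10 had a negative fold change, with a median of -0.16 against 0.01 for all genes. Jam3 was at 125, 112, 137 and 114 CPM in WT BPA animals, and at 146, 151, 131 and 159.6 CPM in WT vehicle animals. The groups overlapped through T61 in the BPA group and T79 in the vehicle group (-0.27 ± 0.0715, SE, edgeR adjusted p = 0.0776). In the authors' deposited table Jam3 has a log2 fold change of -0.27 with an adjusted p-value of 0.01, where 965 of 32643 genes are under 0.05, and DESeq2 called it too (adjusted p = 0.0178).

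Cldn11 was at 395, 302, 419 and 324 CPM in the same WT BPA animals, and at 577, 581, 323 and 487 CPM in the WT vehicle animals. Animal T79 was as low as the BPA group (-0.45 ± 0.159, edgeR adjusted p = 0.142). F11r had -0.28 ± 0.0945 (edgeR adjusted p = 0.128), Cdh2 had -0.16 ± 0.0723 (adjusted p = 0.227) and Tjp1 had 0.11 ± 0.0520 (adjusted p = 0.264). Without WT vehicle animal T79 edgeR called Cldn11, F11r and Jam3 (adjusted p = 0.0183, 0.0384 and 0.0189) among 1321 genes. T79 was the lowest WT vehicle animal for each of these 3 genes. Each was called in only 1 of the 21 fits without 1 library, with edgeR adjusted p up to 0.411, 0.36 and 0.274. The authors' deposited table gives an adjusted p-value of 0.07 for both Cldn11 (-0.45) and F11r (-0.28). The Sertoli markers stood in the same place: their sum was 6904 to 8608 CPM in WT BPA animals and 7279 to 11780 CPM in WT vehicle animals, with T79 lowest among the vehicle animals, and their part was not tested.

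Tjp1 was the member furthest from vehicle under stigmasterol in WT. The 4 stigmasterol animals at 246 to 248.5 CPM all lay above the 4 vehicle animals at 193, 201, 215 and 226 CPM. The log2 fold change was 0.24 ± 0.0521 (unadjusted p = 1.71e-04, edgeR adjusted p = 0.205). Of all genes 3.44% did not overlap between these groups and 0.00494% were called. DESeq2 called Tjp1 (adjusted p = 0.00441) among 0.781% of its genes, and the authors' deposited table gives 0.25 with an adjusted p-value of 0.01, where 12 of 32643 genes are under 0.05. In KO animals the stigmasterol group did not stand above vehicle, at 196 to 221 CPM against 206 to 221 CPM (-0.06 ± 0.0601). The difference between the 2 stigmasterol responses of Tjp1, KO minus WT, was -0.30 ± 0.0795 (unadjusted p = 0.00128, edgeR adjusted p = 0.224), and 0.00987% of all genes were called for that interaction. DESeq2 called it (adjusted p = 0.0284), with 0.93% of its genes.

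In KO animals BPA left all 10 members uncalled, where 0.0148% of all genes were called, and stigmasterol likewise, where the share was 0.0%. For stigmasterol in KO, 779 genes had an unadjusted p under 0.05, none of them a member, and DESeq2 called 1 gene. Cldn11 was the 1 member that did not overlap under BPA, at 404, 389.8 and 391 CPM in KO BPA animals and 501, 438 and 464 CPM in KO vehicle animals (-0.24 ± 0.184, edgeR adjusted p = 0.896), against 11.1% of all genes. Under stigmasterol Cldn11, Cdh2 and Cgn did not overlap with vehicle and were lower, with log2 fold changes of -0.17, -0.11 and -0.12, against 9.59% of all genes. None of the 3 came near the threshold (edgeR adjusted p = 1). For the interaction of BPA with genotype, where 0.0148% of all genes were called, F11r had the smallest p of the members: 0.31 ± 0.144 (unadjusted p = 0.0484, edgeR adjusted p = 0.563).

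**Figure D5:**
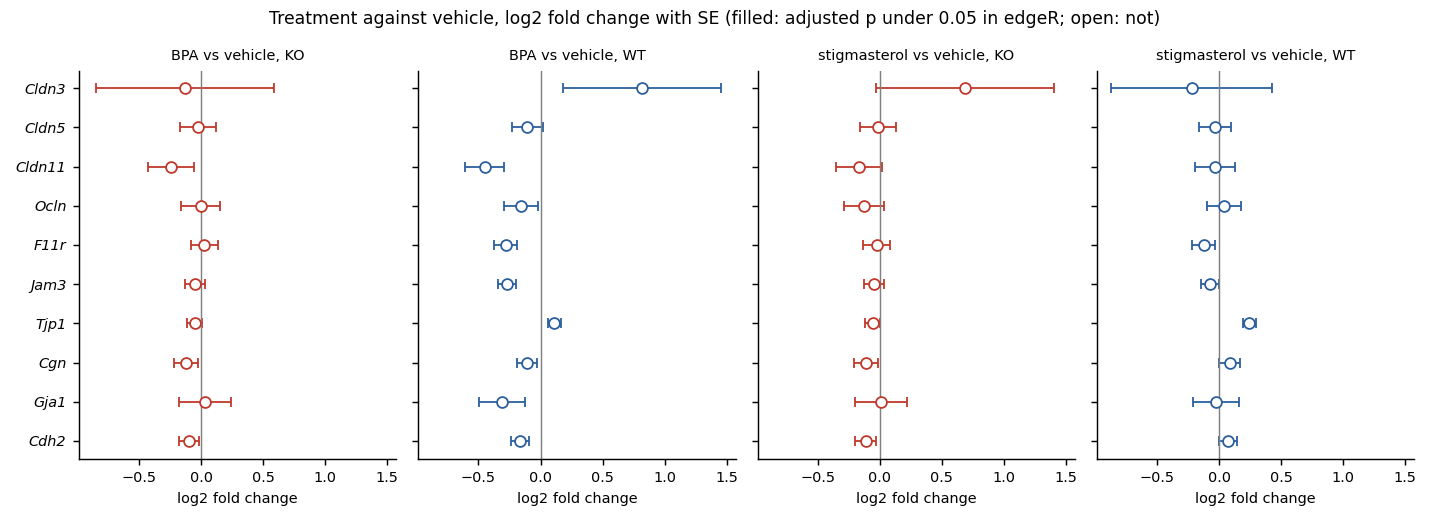
Log2 fold change of each junction gene with its SE for BPA against vehicle and stigmasterol against vehicle, in KO (red) and WT (blue); open points have an edgeR adjusted p of 0.05 or more. No point is filled, and Tjp1 under stigmasterol in WT (0.24) and Cldn11 under BPA in WT (-0.45) lie apart from 0.

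Other genes of the same junctions gave a mixed picture between genotypes. The counts over all treatments below stand beside 6.85% of all genes tested called higher and 7.07% called lower in KO. Of 20 other claudins 13 were tested, and over all treatments 8 rose in KO and none fell, with a median log2 fold change of 1.21. Cldn9 averaged 0.636 ± 0.617 CPM in KO (SD, n = 9) and 0.168 ± 0.0876 CPM in WT (SD, n = 12), at 1.77 ± 0.372 (SE, edgeR adjusted p = 0.00414), and Cldn20 1.07 ± 0.224 CPM in KO and 0.603 ± 0.235 CPM in WT, at 0.85 ± 0.186 (adjusted p = 0.00543). In the same comparison 10 of 12 epididymis and duct markers rose. Without the 9 Cdh16-rich libraries none of 14 claudins tested was called and their median was 0.18, and with the epididymis score as a covariate 1 rose and 1 fell. Under stigmasterol Cldn9 (3.06 ± 0.627, edgeR adjusted p = 0.00709) and Cldn6 (2.67 ± 0.567, 0.00912) rose in KO, and under vehicle Cldn20 did (1.40 ± 0.326, 0.0251).

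Among 32 other tight junction genes 7 rose and 4 fell in KO over all treatments (median 0.04). Llgl2, a polarity gene, averaged 29.3 ± 3.07 CPM in KO and 22.6 ± 3.88 CPM in WT, at 0.38 ± 0.0792 (SE, edgeR adjusted p = 0.00375). Ybx3, whose protein ZONAB binds ZO-1, fell under vehicle, with 82.7 ± 2.52 CPM in KO (SD, n = 3) and 106 ± 10.0 CPM in WT (SD, n = 4), at -0.36 ± 0.0904 (adjusted p = 0.0375).

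Among 32 adherens junction and ectoplasmic specialization genes 6 fell in KO and none rose over all treatments (median -0.02). Eps8, which bundles actin filaments at the ectoplasmic specialization, was 35.1 ± 2.05 CPM in KO stigmasterol (SD, n = 3) and 85.6 ± 8.51 CPM in WT stigmasterol animals (SD, n = 4), at -1.28 ± 0.264 (SE, edgeR adjusted p = 0.00723). Over all treatments Eps8 had -0.71 ± 0.149 (adjusted p = 0.00429) and Rai14, another actin organizer of that structure, -0.17 ± 0.0361 (adjusted p = 0.0046). Under stigmasterol Rai14 was 123 ± 3.57 CPM in KO and 153 ± 7.76 CPM in WT, at -0.32 ± 0.0628 (adjusted p = 0.0056). Of 9 desmosome genes tested 2 rose and 1 fell (median 0.02). The plakophilin gene Pkp3 rose (1.41 ± 0.277, edgeR adjusted p = 0.00245), at 1.92 ± 1.62 CPM in KO and 0.684 ± 0.301 CPM in WT. Jup, the plakoglobin shared by desmosomes and adherens junctions, fell under vehicle (-0.31 ± 0.0747, adjusted p = 0.0312). Of 18 genes that regulate the barrier 4 fell and none rose (median -0.0072), and 3 of these 4 (Sox9, Fshr and Wt1) are also in the Sertoli list. Sox9, a Sertoli transcription factor, was 162 ± 6.59 CPM in KO vehicle and 225 ± 35.6 CPM in WT vehicle animals, at -0.47 ± 0.120 (edgeR adjusted p = 0.0382).

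Without the 9 Cdh16-rich libraries, 1 of the adherens genes was called lower and no gene of the tight junction, desmosome and regulator lists was called. With the epididymis score as a covariate 3 adherens genes and 2 regulators fell, and 2 tight junction genes rose and 2 fell. The share of all genes called in that fit is not given here. These counts, and those of the claudins with the covariate above, thus cannot be set against it. BPA and stigmasterol against vehicle gave no call in any of these junction lists, in KO or in WT.

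The genes whose log2 CPM ran most like each member over the 21 libraries are given with Pearson's r. This r is a description, since KO and WT libraries are pooled and any shift between genotypes enters it. Gja1 was closest to Yap1 (0.977), Ocln (0.961) and Tubb5 (0.958), and Ocln to Gja1 (0.961), Tbcd (0.959) and Igsf11 (0.957), so that the connexin and occludin stood in each other's first 3 of 20254 genes. F11r was closest to Sox9 (0.953), Sugt1 (0.946) and Derl1 (0.942), Jam3 to Cldn26 (0.939), Pvrl2 (0.938) and Cst12 (0.928), and Cldn11 to Defb19 (0.962), Tdrp (0.961) and Cdk5 (0.958). Cst12 and Defb19 are secreted products of Sertoli cells and Pvrl2 encodes nectin 2, an adhesion molecule of the ectoplasmic specialization. Cldn3 was closest to Crip1 (0.971), Cdcp1 (0.971) and Slco2a1 (0.97). Tjp1 was closest to Kidins220 (0.927), Jmy (0.873) and Wdr26 (0.863), Cgn to Stim1 (0.881), Slc11a2 (0.873) and Fads2 (0.872), Cdh2 to Rnf10 (0.873), Slc19a2 (0.865) and Pdia5 (0.863), and Cldn5 to BC024139 (0.867), Grap (0.781) and Susd5 (0.774). Cldn5 thus had the weakest neighbours of the 10.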

How the data were processed

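Whole testes of 21 mice were sequenced (TruSeq RNA kit). The submitters' processing notes name TopHat2 2.0.10 with Bowtie2 2.1.0, CASAVA 1.8.2, Bowtie and build mm10. No source used here gives the read counter, the annotation or the authors' test. The deposited table holds raw read counts per gene, the authors' normalized signal (also divided by gene length) and their log2 fold changes with adjusted p-values. A model of the counts was fitted in R 4.3.3 with edgeR 4.0.16 (TMM, filterByExpr with a minimum count of 10 and a minimum total of 15, 6 groups, quasi-likelihood F-test), in 10 contrasts adjusted by Benjamini-Hochberg. The SE is the log2 fold change divided by the root of F, and the biological coefficient of variation was 19.16%. The depth makes 3 counts worth 0.0488 to 0.0846 CPM. Scores are mean log2 CPM with a prior count of 2. Relations of members to scores used permutation tests within each genotype, exact in KO and with 100000 resamples in WT. Animals were permuted across the 3 treatments, so differences between treatments enter r, rho and p. The procedure was also run on simulated counts with some genes changed in the KO vehicle group alone. Those counts held no epididymal transcripts and no shift of a cell type, so they do not test the results for such effects.

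The members and lists were chosen with earlier results of these data known. All members were reported in every contrast. Of the other junction lists, at most 6 called genes per contrast were named by smallest p, plus, for each member, the 3 genes with the highest r. Fshr and Wt1 were named after their values were seen, and the other gap junction genes are not reported here. Alternatives were other size factors, upper-quartile scaling, limma-voom 3.58.1, DESeq2 1.42.0, no low-count filter, a fit of only the groups compared, leaving out each library or the 9 whose Cdh16 reached 10 CPM, and an epididymis covariate.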

Additional observations from a re-analysis of the deposited data

Results flagged for a closer look

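Of 30 sets of 4 WT animals examined (10 members in 3 treatments), 1 held an animal far from the others. Cldn5 was at 15.49 CPM in WT vehicle animal T66, while T79, T81 and T71 had 11.77, 12.19 and 12.32 CPM. The gap made up 0.852 of the whole range, above Dixon's 95% critical value for 4 samples, which chance passes in about 1 of 20 sets. KO groups have 3 animals and were not examined in this way. No comparison of Cldn5 was called.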

How the results depend on the processing

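No paired analysis was possible because the animal numbers are not shared between groups. Of 2890 member values under the alternatives, 2707 kept their direction and their side of the threshold, 60 lost a call, 20 gained one and 103 changed sign. Of the sign changes 101 concern values that were not called, and none was called after it. The other 2 are the called Cldn3 values with the epididymis covariate, -0.003925 under stigmasterol and -0.03852 over all treatments. Leaving out 1 library gave 0 to 2 members called (242 to 986 genes) for KO against WT under vehicle, 0 to 0 (108 to 182 genes) under BPA, 1 to 5 (637 to 1773 genes) under stigmasterol and 4 to 5 (2171 to 3239 genes) over all treatments. It gave 0 to 3 (0 to 1321 genes) for BPA in WT and 0 members for the other 5 contrasts. Without the 9 Cdh16-rich libraries, 0 members were called under vehicle, under stigmasterol and over all treatments (257 genes). With only the compared groups fitted, 0 members were called under vehicle (185 genes, against 592) and 0 under stigmasterol (327, against 1461). DESeq2 called 2 members under vehicle (1397 genes) and 5 under stigmasterol (2173 genes), 1 (Jam3, 1019 genes) for BPA in WT, and 1 (Tjp1) for stigmasterol in WT and for its interaction with genotype (71 and 125 genes). limma-voom called 1 member under stigmasterol, and with the covariate 2 members were called under vehicle. The share of all genes called is not given for either, so neither count can be set against it. With the covariate 715 genes were called under stigmasterol. The relations to cell type scores numbered 6 past the threshold, 5 without the 2 farthest libraries and 6 on the authors' length-normalized signal. Except where a left-out set leaves fewer samples, the cause of these shifts was not tested. Cldn3, with 69 to 1468 reads per library, is the member most limited by depth.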
